A study of Homo sapiens with 6 samples.

Results

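The 5-methylcytosine (m5C) levels of the same mRNA positions were compared between RNA that sedimented with the small ribosomal subunit and RNA that sedimented with heavy polysomes, that is, with more than 5 ribosomes. Sites were taken from the lists of m5C sites called in each library, and a site was kept where it was listed in both and covered by at least 20 reads in each. Of the 542 sites listed in any library of the series, 339 were listed in the small subunit library (199 sites) or the heavy polysome library (225 sites), and 85 were listed in both. All 85 had the required coverage, so none was lost to that filter. They lay in 85 different genes and made up 42.7% of the small subunit list and 37.8% of the heavy polysome list.

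Lysate of wildtype HEK293T cells, a human embryonic kidney line, was made with cycloheximide, which holds ribosomes on mRNA, and separated on a sucrose gradient into 6 fractions: free RNA, small subunit, large subunit, monosome, light polysome (2 to 5 ribosomes) and heavy polysome. Polyadenylated RNA of each fraction was treated with bisulfite, under which unmethylated C is read as T and m5C is still read as C, and was sequenced as 1 library. The m5C level is the share of reads with C among reads with C or T. All fractions share the genotype, the cells and the drug, and each fraction has 1 library, so the fraction and the handling of its library (conversion, amplification, sequencing) cannot be told apart, and the tests compare these libraries, not the conditions. The lists hold m5C sites and no expression values, so the identity of the cell line was not checked against marker genes.

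In mRNA, m5C is written by methyltransferases of the NSUN family. NSUN2 methylates sites that are followed by a G-rich stretch, and NSUN6 methylates sites followed by UCCA, often in the loop of a hairpin. Sites followed by UCCA are called Type II here and all others Type I, so that Type I also holds sites without the G-rich stretch (15 of the 45 tested), whose enzyme the context does not give. An mRNA recruits the small ribosomal subunit first, joins the large subunit at the start codon and gathers further ribosomes as translation proceeds, so that heavy polysomes hold mRNAs in active translation. A long coding sequence has room for more ribosomes than a short one. Reads at the 85 sites numbered from 20 to 107456 in the small subunit library (median 74.0) and from 21 to 5522 in the heavy polysome library (median 152). The intervals given with levels are 95% Wilson intervals and those given with differences are Newcombe intervals. Without molecular identifiers on the reads, these intervals and the tests describe counting error alone.

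Sequences are given for a choice of sites with large differences or many reads, to show both classes, and those of FBXL6 and PABPC1 are not printed. Each line gives 21 nt of the spliced transcript, 5′ to 3′, read from GRCh37 with GENCODE 44 transcripts and written as RNA. The capital C in the middle is the measured position, and for Type II sites the capitals continue through the UCCA that follows it. The first 5 are Type I sites in which 2 or more of the next 3 bases are G.
CHCHD10: caccaugccuCggggaagccg
GNAS: ggggcccggcCgaggcaauaa
SPATA20: uugcucaauuCagggcuggag
QARS: ccucccgacuCagggauaccc
TMEM219: agugcuguucCaggaauccua
NDUFB7: ugcucaagugCaagcgugaca
SLC25A6: ccgccgccauCUCCAagacgg
C19orf70: cccgcgaguaCUCCAaggagg
TRAF7: gcagcgucuaCUCCAuugcug
RPSA: guguuauaucCUCCAggaaua
RPS6KB2: ccugggccauCUCCAcuccca
MT-RNR1: acacaccgccCgucacccucc
MARCKSL1: gcagccagagCUCCAaggcuc
NDUFB7 and MT-RNR1 carry Type I sites without the G-rich stretch, and MARCKSL1 is shown as a well-covered Type II site whose difference had a narrow interval around 0. The window of RPSA occurs 18 times in the genome and is also that of its processed pseudogene RPSAP15.

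Levels were higher in the small subunit library at 56 of the 85 sites and lower at 29. Fisher's exact test (two-sided, on the reads with C and with T at a site, Benjamini-Hochberg adjusted over the 85 sites) called 18 sites different at an adjusted p under 0.05 (21.2% of those tested), 15 of them higher in the small subunit library (17.6%) and 3 higher in the heavy polysome library (3.53%). At an unadjusted p under 0.05 the number was 27. The median level was 27.3% in the small subunit library and 21.2% in the heavy polysome library, and the median of the 85 differences, small subunit minus heavy polysome, was 2.28 percentage points (95% order-statistic interval over sites 0.839 to 5.78). The differences ranged from -39.0 to 43.6 percentage points, with quartiles at -2.17 and 8.29. Since a site is listed only from a level of 10% upwards, a site that fell under 10% in either library is not among the 85. Calls depended on coverage and also went with level. Where the smaller of the 2 coverages was between 20 and 49 reads, 2 of 34 sites were called, and where it was at least 200 reads, 9 of 20 were. With a mean level of the 2 libraries under 20%, 2 of 31 sites were called. From 20% to under 40% it was 8 of 34, and at 40% or more 8 of 20. The median absolute differences of these level classes were 2.28, 8.75 and 11.3 percentage points.

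**Figure D1:**
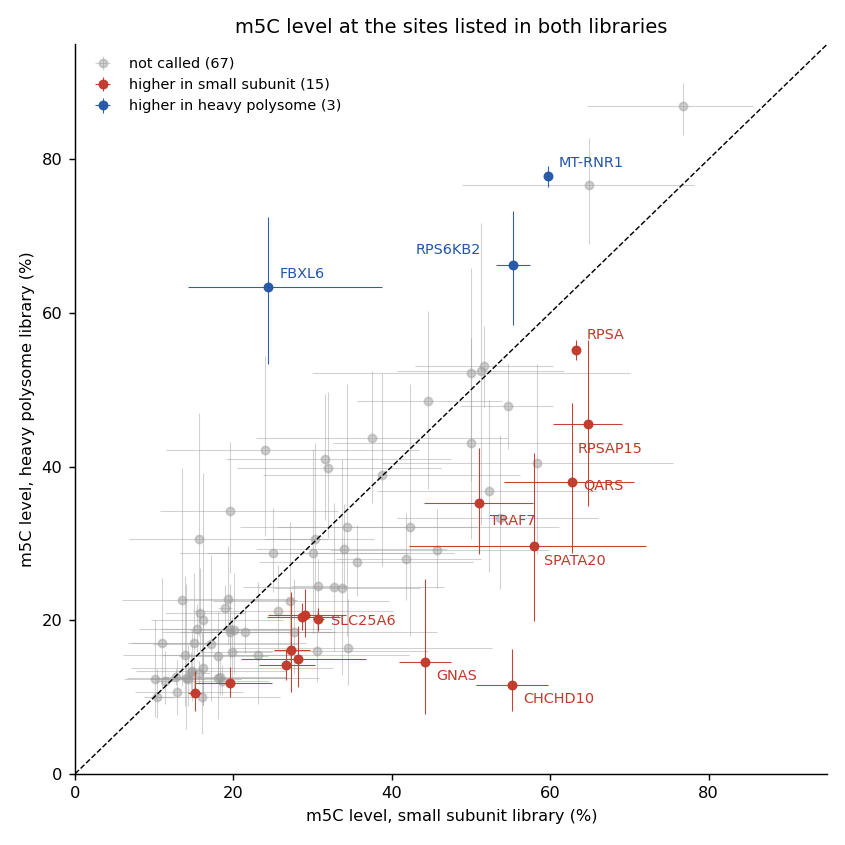
m5C level (%) of the 85 sites in the small subunit library (x axis) and in the heavy polysome library (y axis), with 95% Wilson intervals and the line of equal levels; red and blue points are the 15 and 3 sites that differed by Fisher's exact test. CHCHD10 and GNAS lie far below the line, at 11.6% and 14.5% in heavy polysomes against 55.2% and 44.2% in the small subunit library, and FBXL6 lies far above it.

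The difference furthest from 0 was in a gene for a mitochondrial protein. CHCHD10 encodes a small protein of the mitochondrial intermembrane space that is tied to the upkeep of cristae. Its Type I site (ENSG00000250479, chromosome 22, position 24110055, minus strand, CDS of exon 1) lies 6 nt after the first coding base. C was read in 255 of 462 reads in the small subunit library, 55.2% (50.6% to 59.7%). In heavy polysomes it was read in 28 of 242 reads, 11.6% (8.13% to 16.2%). The intervals are far apart, and the difference was 43.6 percentage points (37.1 to 49.3, Fisher's exact test, adjusted p = 2.32e-30). Elsewhere the site stood at 47.6% in free RNA, 51.1% with the large subunit and 54.5% in monosomes. Light polysomes did not list it, so the heavy polysome value lies far below every other listed one.

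Of the other mitochondrial genes, SLC25A6, C19orf70 and NDUFB7 also differed. SLC25A6 encodes an ADP/ATP carrier of the inner membrane, and its Type II site (ENSG00000169100, chromosome X, position 1510840, minus strand, CDS of exon 1) had a level of 30.7% over 18859 reads in the small subunit library (30.1% to 31.4%) and 20.1% over 2871 reads in heavy polysomes (18.6% to 21.6%). The difference of 10.6 percentage points had a narrow interval (9.0 to 12.2, Fisher's exact test, adjusted p = 1.18e-31). C19orf70 encodes a subunit of the complex that shapes the cristae junctions of the inner membrane. Its Type II site (ENSG00000174917, chromosome 19, position 5678604, minus strand, CDS of exon 4) fell from 26.6% (156 of 587 reads) to 14.1% (156 of 1103 reads, difference 12.4, interval 8.38 to 16.6, Fisher's exact test, adjusted p = 1.75e-08). In both genes the polysome libraries were the lowest of the 6, with C19orf70 at 14.4% in light polysomes, next to its heavy polysome value, and SLC25A6 at 26.2%, between the subunit and heavy polysome values. NDUFB7, an accessory subunit of respiratory complex I, showed 28.6% over 364 reads and 20.4% over 2004 reads at its Type I site (ENSG00000099795, chromosome 19, position 14677651, minus strand, CDS of exon 2), a difference of 8.21 percentage points (3.45 to 13.3, Fisher's exact test, adjusted p = 0.00638). Its levels in the other libraries lay between those values, from 22.3% to 25.3%.

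RPSA had the deepest coverage of the tested mRNA sites in both libraries. This protein of the small ribosomal subunit has a Type II site in its mRNA (ENSG00000168028, chromosome 3, position 39450197, plus strand, CDS of exon 3) with 63.2% of 50654 reads in the small subunit library (62.8% to 63.7%) and 55.2% of 5522 reads in heavy polysomes (53.9% to 56.5%). The difference was 8.04 percentage points (6.66 to 9.42, Fisher's exact test, adjusted p = 9.40e-30). Against the light polysome library, where the level was 63.9%, the small subunit library showed a difference of -0.662 (adjusted p = 0.450 by the exact test), so the call rests on the heavy polysome library. The processed pseudogene RPSAP15 (ENSG00000237506, chromosome X, position 86958997, minus strand) has the same 21 nt and stood at 64.8% of 452 reads and 45.5% of 77 reads (difference 19.4, interval 7.41 to 30.8, Fisher's exact test, adjusted p = 0.0126). The shared window alone does not tell reads of the gene and its copies apart, and whether the longer reads do was not tested. With the reads of both summed the levels were 63.2% and 55.1%.

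RPS2, another protein of the small subunit, and its processed pseudogene RPS2P5 also share their 21 nt, which occur 11 times in the genome. RPS2 (ENSG00000140988, chromosome 16, position 2014563, minus strand, CDS of exon 2) was at 14.6% of 13527 reads and 13.3% of 762 reads, a difference of 1.38 percentage points that was not called (-1.28 to 3.68, Fisher's exact test, adjusted p = 0.639). RPS2P5 (ENSG00000240342, chromosome 12, position 118683952, plus strand) was at 15.1% of 7164 reads and 10.5% of 531 reads (difference 4.54, interval 1.53 to 7.03, Fisher's exact test, adjusted p = 0.0214). With the reads of both summed, the levels were 14.8% and 12.1% and the difference was 2.65 percentage points (0.694 to 4.39, Fisher's exact test, adjusted p = 0.0434). The heavy polysome level of RPS2P5 is close to the 10% from which sites are listed. In light polysomes 191 of 1272 reads showed C, and small subunit minus light polysome was 0.0736 percentage points (adjusted p = 1.00 by the exact test), so this call too rests on the heavy polysome library.

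Genes of translation and signalling moved in both directions. QARS, the glutaminyl-tRNA synthetase, had a level of 62.8% (81 of 129 reads, 54.2% to 70.6%) in the small subunit library and 38.0% (35 of 92 reads, 28.8% to 48.3%) in heavy polysomes at a Type I site (ENSG00000172053, chromosome 3, position 49141833, minus strand, CDS of exon 2). The difference was 24.7 percentage points (11.4 to 36.9, Fisher's exact test, adjusted p = 0.00389), and the light polysome level of 44.8% lay between the 2 values. GNAS encodes the stimulatory G protein alpha subunit, which couples receptors to adenylyl cyclase. Its Type I site (ENSG00000087460, chromosome 20, position 57466440, plus strand) lies in exon 1, in the 5′ UTR of a transcript that is not the canonical one, 342 nt before its start codon. The level was 44.2% of 853 reads (40.9% to 47.5%) and 14.5% of 62 reads (7.83% to 25.3%), a difference of 29.7 percentage points (18.4 to 37.2, Fisher's exact test, adjusted p = 2.64e-05). The large subunit, monosome and light polysome levels of GNAS were 49.2%, 37.3% and 28.7%, so the level was lower in each denser fraction from the large subunit on. TRAF7, a ubiquitin ligase of signalling complexes, fell from 51.0% of 200 reads to 35.2% of 179 reads at a Type II site (ENSG00000131653, chromosome 16, position 2225897, plus strand, CDS of exon 18, difference 15.8, interval 5.82 to 25.3, Fisher's exact test, adjusted p = 0.0168).

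The remaining sites higher in the small subunit library belonged to genes of varied roles. SPATA20 had the fewest reads of the called sites on that side, with 22 of 38 reads (57.9%, 42.2% to 72.1%) against 19 of 64 (29.7%, 19.9% to 41.8%) at a Type I site (ENSG00000006282, chromosome 17, position 48628471, plus strand, CDS of exon 12), and its difference of 28.2 percentage points had a wide interval (8.39 to 45.5, Fisher's exact test, adjusted p = 0.0334). TMEM219, a membrane protein known as a receptor of an insulin-like growth factor binding protein, stood at 27.3% of 1519 reads and 16.1% of 124 reads at a Type I site (ENSG00000149932, chromosome 16, position 29979433, plus strand, CDS of exon 4, difference 11.2, interval 3.41 to 17.1, Fisher's exact test, adjusted p = 0.0308). Its light polysome level, 15.2% of 632 reads, was next to the heavy polysome value. The called 3′ UTR sites were in CINP, a partner of a cyclin-dependent kinase in DNA replication, and in HDGF, a chromatin-binding growth factor. CINP fell from 28.1% of 121 reads to 14.9% of 303 reads (ENSG00000100865, chromosome 14, position 102814850, minus strand, difference 13.2, interval 4.75 to 22.5, Fisher's exact test, adjusted p = 0.0161). Its levels in the other libraries lay between those values, from 16.4% with the large subunit to 22.1% in free RNA and in monosomes. Large subunit minus heavy polysome was 1.59 percentage points (adjusted p = 0.910 by the exact test), so the CINP call was not held with the large subunit library. That library had only 73 reads there (9.66% to 26.6%), so this cannot place the difference in the small subunit library alone. HDGF fell from 29.0% of 324 reads to 20.7% of 637 reads (ENSG00000143321, chromosome 1, position 156713158, minus strand, difference 8.29, interval 2.56 to 14.2, Fisher's exact test, adjusted p = 0.0275). GIPC1, a PDZ adaptor protein that falls outside the naming rule and is given to complete the 15, went from 19.5% of 256 reads to 11.8% of 1032 reads (difference 7.71, interval 2.84 to 13.3, Fisher's exact test, adjusted p = 0.0151). The light polysome level of GIPC1 was 20.6% (small subunit minus light polysome -1.05 percentage points), so its difference, like those of RPSA and RPS2P5, rests on the heavy polysome library.

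**Figure D2:**
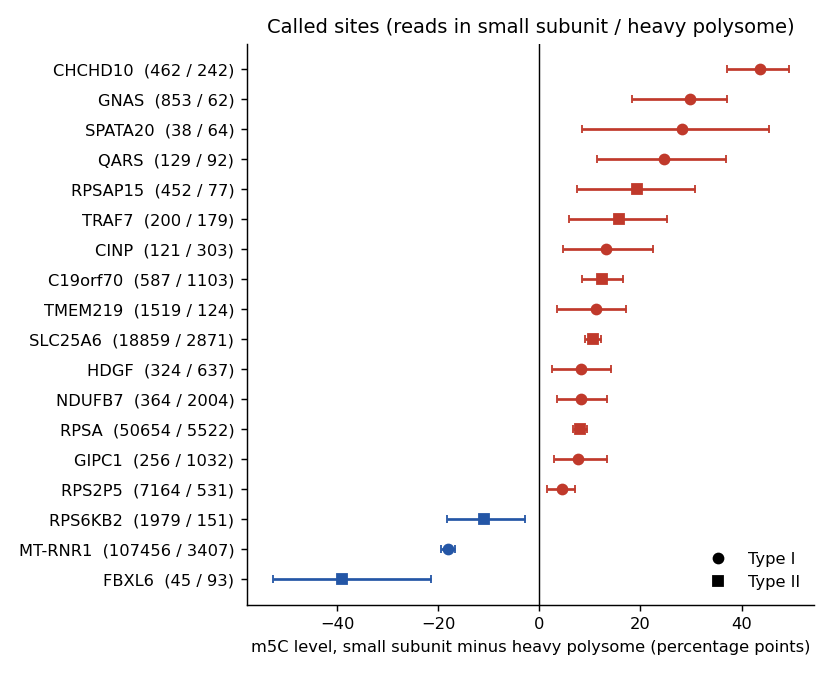
Difference in m5C level (percentage points, x axis), small subunit minus heavy polysome, with 95% Newcombe intervals for the 18 called sites, with the reads in each library beside the gene; circles are Type I and squares Type II sites. The intervals are widest for SPATA20 (38 and 64 reads) and FBXL6 (45 and 93 reads) and narrowest for RPSA and MT-RNR1.

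The 3 sites that were higher in heavy polysomes differed in kind. FBXL6 encodes an F-box protein, which selects targets for a ubiquitin ligase. C was read there in 11 of 45 reads in the small subunit library (24.4%, 14.2% to 38.7%) and in 59 of 93 reads in heavy polysomes (63.4%, 53.3% to 72.5%) at a Type II site (ENSG00000182325, chromosome 8, position 145580656, minus strand, CDS of exon 4). The level rose by 39.0 percentage points with few reads behind it (small subunit minus heavy polysome -39.0, interval -52.7 to -21.5, Fisher's exact test, adjusted p = 2.75e-04). The large subunit, monosome and light polysome levels were 23.5%, 20.7% and 37.2%, each over 51 reads or fewer. The heavy polysome value was the highest of these, although the test between the light and heavy polysome libraries called no site higher in heavy polysomes, this one included. RPS6KB2, a kinase of ribosomal protein S6 that acts under mTOR, had 55.3% of 1979 reads (53.1% to 57.5%) and 66.2% of 151 reads (58.4% to 73.3%) at a Type II site (ENSG00000175634, chromosome 11, position 67200245, plus strand, CDS of exon 7). This call is at the threshold (difference -10.9, interval -18.3 to -2.74, Fisher's exact test, adjusted p = 0.0497), and it was not held when the reads of the ribosomal protein copies were summed and the adjustment ran over 83 sites (adjusted p = 0.0514 by the same exact test).

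MT-RNR1 is the small ribosomal RNA of mitochondria. It is not translated, belongs to the mitochondrial ribosome, and is known to carry m5C written by NSUN4. Its site (ENSG00000211459, mitochondrial chromosome, position 1488, plus strand, noncoding exon, base 841 of the RNA) held more reads than any other in the small subunit library, with C in 64175 of 107456 reads, 59.7% (59.4% to 60.0%). In heavy polysomes the level was 77.8% of 3407 reads (76.4% to 79.1%, difference -18.1, interval -19.5 to -16.6, Fisher's exact test, adjusted p = 1.55e-105). Elsewhere the levels were 56.4% in free RNA, 76.5% with the large subunit, 83.7% in monosomes and 83.6% in light polysomes. The heavy polysome level was thus near that of the large subunit library and below the monosome and light polysome levels. Its 21 nt occur 7 times in the genome, and reads of nuclear copies were not told apart here. The site held 13.4% of the reads when sites were weighted by the smaller of their coverages, and the weighted mean difference was 2.65 percentage points with it and 5.87 without it.

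Among the 67 sites that were not called, some were measured closely. MARCKSL1, an actin-binding kinase substrate, had 12.7% of 1416 reads and 12.6% of 4472 reads at a Type II site 14 nt after the first coding base, a difference of 0.145 percentage points (-1.77 to 2.21, Fisher's exact test, adjusted p = 1.00). PABPC1, the cytoplasmic poly(A)-binding protein, had 18.9% of 7805 reads and 21.6% of 806 reads (-2.64, -5.73 to 0.205, Fisher's exact test, adjusted p = 0.225). NT5DC2 had 15.7% of 3073 reads and 13.1% of 1925 reads (2.56, 0.552 to 4.52, Fisher's exact test, adjusted p = 0.0553), just outside the threshold. EIF2S3, the subunit of the initiation factor that carries the initiator tRNA, had the lowest mean level, with 10.4% of 980 reads and 10.0% of 349 reads, and its 21 nt occur 334 times in the genome. For 8 of the 67 sites the interval lay wholly within 10 percentage points of 0, and for 5 of them within 5 percentage points, so for the other sites the depth leaves room for a difference of more than 10 percentage points in at least 1 direction. Where levels are close to the 10% from which sites are listed, as for MARCKSL1 and EIF2S3, that limit also bounds the fall that could be seen.

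Other sites that were not called had large differences and few reads. REEP6, a shaper of the endoplasmic reticulum, stood at 53.6% of 56 reads and 33.3% of 81 reads (20.2, 3.43 to 35.7, Fisher's exact test, adjusted p = 0.0824). CDIP1, a pro-apoptotic protein, stood at 34.5% of 29 reads and 16.4% of 165 reads (18.1, 2.23 to 36.9, Fisher's exact test, adjusted p = 0.121). SAMD11 stood at 58.3% of 24 reads and 40.4% of 57 reads (18.0, -5.43 to 38.8), and NUDT3 at 24.0% of 25 reads and 42.2% of 64 reads (-18.2, -35.7 to 4.30). The intervals of SAMD11 and NUDT3 include 0, so no direction can be read there. PVRL2, a nectin adhesion receptor, had the highest mean level, with 76.7% of 60 reads and 86.9% of 382 reads at a Type II site in the CDS (-10.2, -22.7 to -0.591, Fisher's exact test, adjusted p = 0.149).

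Genes were grouped by textbook function, and each group is set beside all 85 tested sites. Over all of them 18 were called (21.2%), 15 of these higher in the small subunit library (17.6%), and the median difference was 2.28 percentage points. The lists were drawn up with earlier results of these data known, so their counts are descriptions. Median smaller coverage was 59.0 reads over all sites, 200 in the mitochondrial list and 646 in the ribosomal protein list. Calls depended on coverage, and its part in the counts per list was not tested. Nuclear-encoded mitochondrial proteins had 11 tested sites, of which CHCHD10, SLC25A6, C19orf70 and NDUFB7 were called higher in the small subunit library and none lower, with a median of 6.39 percentage points. Those that did not pass the test ranged from ATP5SL, a respiratory complex assembly factor (41.8% of 110 reads against 28.0% of 236 reads, Fisher's exact test, adjusted p = 0.0553), to MRPS25, a protein of the mitochondrial ribosome (19.6% of 46 reads against 34.2% of 117 reads, adjusted p = 0.256 by the exact test). PET100, an assembly factor of cytochrome c oxidase, was close to the threshold at 18.5% of 200 reads against 12.1% of 1148 reads (6.39, 1.21 to 12.6, Fisher's exact test, adjusted p = 0.0646). SLC25A39, a carrier of the inner membrane like SLC25A6, was at 11.3% of 2266 reads and 12.1% of 347 reads. The interval of its difference (-4.81 to 2.56) does not reach the difference of SLC25A6. Both levels of SLC25A39 are close to the level from which sites are listed. A fall as large as that of SLC25A6 would have taken the site off the heavy polysome list, so the carriers cannot be contrasted. Of the 4 sites in cytosolic ribosomal proteins and their copies, 3 were called higher in the small subunit library (median 6.29), but the 4 sites are 2 pairs of shared sequences. Translation factors and related proteins had 7 sites, with QARS higher and RPS6KB2 lower in the small subunit library and a median of 1.42. The others were TARBP2, a partner of Dicer (19.8% and 15.8%), ETF1, the release factor that ends translation (12.9% and 10.7%), HDLBP (14.8% and 13.4%), EIF2S3 and PABPC1, none of them called. Kinase and receptor signalling had 8 sites, with GNAS and TRAF7 higher and RPS6KB2, which is in both lists, lower, and a median of 2.26. Among its uncalled members, the kinase MAPK3 stood at 54.6% of 273 reads and 47.9% of 303 reads (6.72, -1.44 to 14.8), the adaptor GRB2 at 33.9% and 29.2%, and the calmodulin gene CALM3 at 15.8% of 203 reads and 20.9% of 211 reads (-5.09, -12.5 to 2.41).

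No site was called among the 8 in the endoplasmic reticulum, Golgi and secretory route, whose median was 3.72 percentage points, although 6 of the 8 were higher in the small subunit library. Median smaller coverage in this list was 46.5 reads, against 59.0 over all sites. The nearest to a call was RTN3, a reticulon that bends membranes of the endoplasmic reticulum, with 30.7% of 680 reads against 24.5% of 697 reads (6.20, 1.48 to 10.9, Fisher's exact test, adjusted p = 0.0505). FURIN, a protease of the secretory route, lay the other way, with 64.9% of 37 reads against 76.6% of 145 reads (-11.7, -28.9 to 3.60). Chromatin, transcription and splicing had 7 sites, with HDGF called and a median of -1.16. Its uncalled members included MLLT3 (52.2% and 36.8%), the histone gene H3F3B (19.3% and 22.7%) and NELFB, a subunit of the complex that pauses RNA polymerase (15.4% and 18.8%). The lysosomal sites, in the protease CTSD (1.09) and in PLD3 (-1.42), were not called, and the DNA replication and repair list, which was short and held neither CINP nor the repair gene XRCC5, had no tested site. Sites outside the lists numbered 39, with 4 higher, 2 lower and a median of 2.14.

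By the base context, 45 of the 85 sites were Type I and 40 were Type II (47.1%, against 35.1% of all 542 sites). Type I sites gave 10 calls higher in the small subunit library and 1 lower, with a median difference of 4.43 percentage points. Type II sites gave 5 higher and 2 lower, with a median of 1.45. The shares called were 24.4% of Type I and 17.5% of Type II sites, against 21.2% over all tested sites. Of the 30 Type I sites with the G-rich stretch, 9 were called higher in the small subunit library and none lower (median 5.85), and of the 15 without it 1 was called higher and 1 lower (median 1.45). The shares called of these classes were 30.0% and 13.3%, and the shares were not tested against each other. The spread within each type was wide, and the Type II median minus the Type I median was -2.98 percentage points, with the bounds set by the order-statistic intervals of both at -9.16 and 4.94, so the types were not separated. With at least 50 reads in each library that difference was -0.664.

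By location, CDS held 45 of the 85 tested sites (52.9%) and 12 of the 18 called ones, a call rate of 26.7% beside 21.2% over all sites, with 10 called higher in the small subunit library, 2 lower and a median of 4.62 percentage points. The 30 sites in 3′ UTRs had 2 called higher, none lower, a median of 0.0296, and as many above 0 as below it (15 each). Median smaller coverage was 92.0 reads in CDS and 48.0 in 3′ UTRs, and the part of coverage in the number of calls was not tested. The 20 Type I sites in CDS were higher in the small subunit library at 18 positions and had the highest median of the larger classes, 7.70 percentage points, with a median level of 27.9% in the small subunit library and 16.2% in heavy polysomes. The 25 Type II sites in CDS were higher at 16 (median 3.02) and held both called mRNA sites that were higher in heavy polysomes. The 5 sites in 5′ UTRs included 1 call, GNAS, and ranged on both sides of 0.

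**Figure D3:**
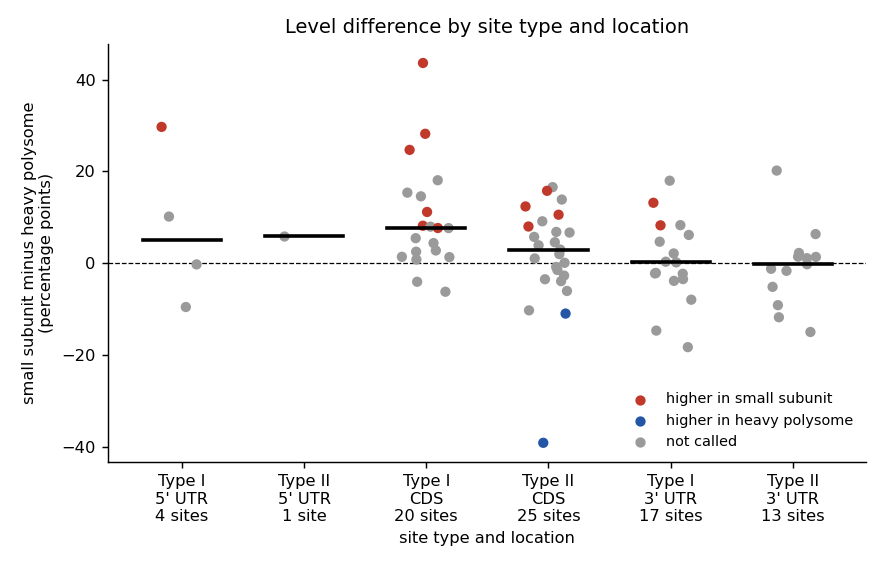
Difference in m5C level (percentage points, y axis), small subunit minus heavy polysome, for each tested site by type and location (x axis), with a bar at the median of each class; red and blue points are called sites. Type I sites in CDS lie above 0 at 18 of 20 positions, and sites in 3′ UTRs are spread on both sides of 0.

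The called sites were followed through the other 4 libraries. Of the 15 sites higher in the small subunit library, all were also listed in the large subunit and monosome libraries, 14 in light polysomes and 11 in free RNA. At the 10 of them that every library listed, the median was 25.7% in free RNA, 28.8% in the small subunit, 27.4% in the large subunit, 26.7% in the monosome, 21.8% in the light polysome and 20.2% in the heavy polysome library. The highest of the 6 levels was in the small subunit library at 5 of the 10 and in the monosome library at the other 5. RPSA and RPSAP15, which share their 21 nt, are both among the 10 and both highest in monosomes (74.3% and 72.5%), so these 2 sites may not be independent. The small subunit and heavy polysome values chose these sites, so the medians of those 2 libraries are a description, and the drop stood between the monosome and the polysome libraries. For the sites not called and listed in all 6 libraries (19 sites), the medians were 24.0% in the small subunit and 24.2% in the heavy polysome library. Those 2 libraries also decided which sites were not called, so their near-equal medians follow from the choice. In the other libraries the medians of these sites were 20.9% in free RNA, 26.0% in the large subunit, 21.4% in the monosome and 20.2% in the light polysome library. A lower light polysome than large subunit median was thus not particular to the called sites.

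**Figure D4:**
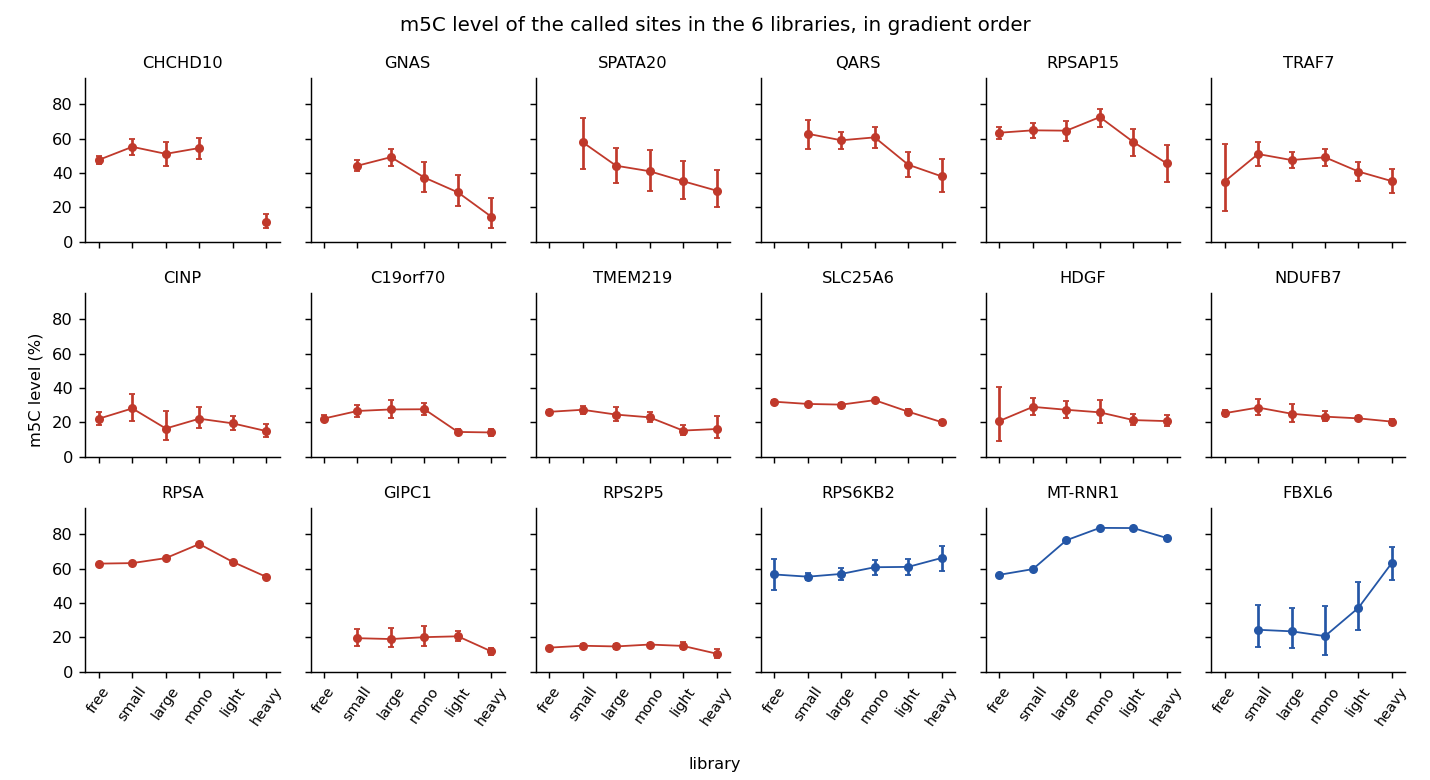
m5C level (%, y axis) of each called site in the 6 libraries in gradient order (x axis), with 95% Wilson intervals; red sites were higher in the small subunit and blue sites in the heavy polysome library, and a gap marks a library in which the site was not listed. GNAS and QARS are lower in both polysome libraries, RPSA peaks at 74.3% in the monosome library, and FBXL6 is highest in the heavy polysome library.

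The large subunit and light polysome libraries come from the same gradient and share no library with the comparison above, so they give a second look at the same sites. In that pair 12 of 127 sites differed (9.45%). Levels were higher in the large subunit library at 72 of the 127 sites and lower at 53. At the 48 of them not called above, 29 were higher there and 18 lower. Of the 15 sites higher in the small subunit library, 14 were in that pair, 11 of these were higher in the large subunit library and 3 (CINP, GIPC1 and RPS2P5) were higher in light polysomes. The 11 include both RPSA and RPSAP15, which share their 21 nt and may not be independent. Calls were made at 6 of the 14, all in the same direction: GNAS (20.5 percentage points, 9.42 to 30.1), QARS (14.3, 5.37 to 22.9), C19orf70 (13.1, 8.05 to 18.7), TMEM219 (9.34, 4.47 to 14.4), SLC25A6 (4.03, 2.26 to 5.76) and RPSA (2.17, 1.14 to 3.19). By Fisher's exact test the adjusted p of these 6 ranged from 5.28e-06 for C19orf70 to 0.0219 for QARS. The 3 sites higher in heavy polysomes were all lower in the large subunit than in the light polysome library, with MT-RNR1 called (-7.16, -7.97 to -6.34, Fisher's exact test, adjusted p = 3.45e-58) and FBXL6 (-13.7, -31.4 to 4.75) and RPS6KB2 (-4.11, -9.83 to 1.71) not called. Among the 48 uncalled sites present in that pair, 28 lay in the same direction and 19 in the opposite one, with RPS2 (3.59) and PVRL2 (-26.5) called. Only CHCHD10 among the 15 could not be compared there, since light polysomes did not list it.

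**Figure D5:**
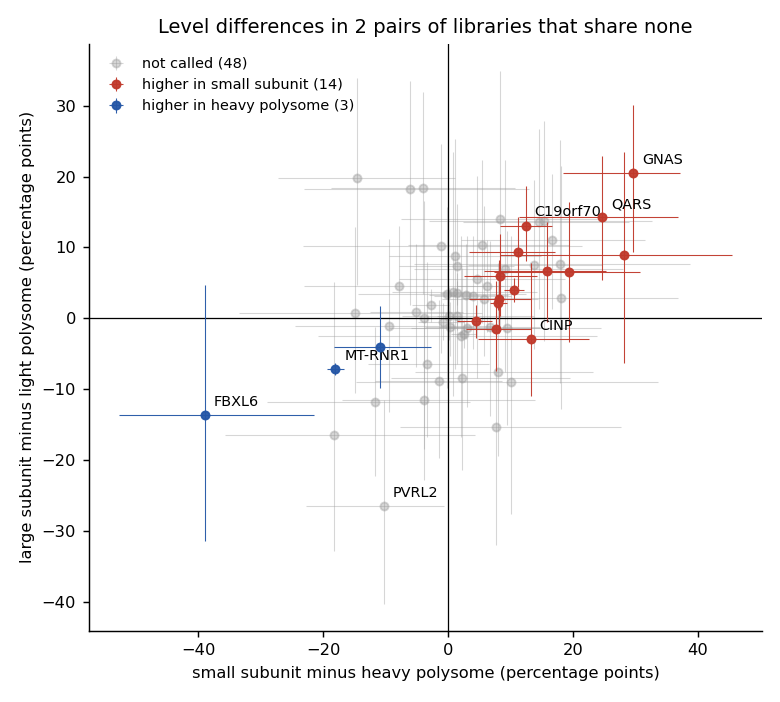
Difference between the large subunit and light polysome libraries (percentage points, y axis) against the difference between the small subunit and heavy polysome libraries (percentage points, x axis) at the 65 sites listed in all of them, with 95% Newcombe intervals; colours mark the calls between small subunit and heavy polysome. GNAS, QARS and C19orf70 are positive in both pairs and MT-RNR1 and FBXL6 are negative in both.

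As a background, neighbouring libraries were compared by the same test. Between the small and large subunit libraries 3 of 113 sites differed (2.65%), all higher in the large subunit library, and between the light and heavy polysome libraries 5 of 132 differed (3.79%), all higher in light polysomes. The share between small subunit and heavy polysome libraries was above both. The sites and the coverage differ between the pairs, which limits how far the shares can be set against each other.

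Features of the transcripts were read for the same sites. Across 84 sites with a placed transcript, the difference had a Spearman correlation of -0.31 with transcript length, and across 80 sites in coding transcripts one of -0.03 with coding length. Across all 85 it was 0.09 with the mean level, 0.13 with the smaller coverage and -0.17 with the number of unpaired bases among the 11 around the site in a fold of 50 nt on either side. These are descriptions over sites that share both libraries. In the predicted fold the C was unpaired at 41 sites and paired at 44, with 8 and 10 called and medians of 2.28 and 2.48 percentage points. At 19 of the 85 sites the 21 nt, after conversion of C to T, occur no more than 1 time in the genome. Of these, 6 were called (31.6%), all higher in the small subunit library (GNAS, CINP, C19orf70, SLC25A6, NDUFB7 and GIPC1), and 16 of the 19 were higher there. Of the other 66 sites 12 were called (18.2%), 9 higher there and 3 lower, and 40 were higher there and 26 lower. Over all 85 sites 18 were called (21.2%) and 56 were higher there.

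The lists also held sites found on 1 side alone. The small subunit list had 114 sites not listed in heavy polysomes, with a median level of 14.0%, and the heavy polysome list had 140 not listed in the small subunit library, with a median level of 16.7%. In each set 89 sites had a level under 20%, close to the limit of listing, and sites with few reads were frequent (37 of 114 and 72 of 140 had fewer than 50). Low coverage or a level below 10% can keep a site off a list, and these cases cannot be told apart from the lists. Noncoding exons held 16.7% of the sites listed for the small subunit alone and 0.714% of those listed for heavy polysomes alone, and protein-coding genes held 80.7% and 97.9%. Of all 542 sites of the series, 65 lay in noncoding exons and 479 (88.4%) in protein-coding genes. For noncoding exons, the share for heavy polysomes alone thus lay further from the whole series than that for the small subunit alone.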

How the data were processed

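Processed m5C site lists of 6 sucrose gradient fractions were used, and the small subunit and heavy polysome lists were compared. Reads had been trimmed with cutadapt 1.13 and Trimmomatic 0.36 and mapped with HISAT2 and Bowtie2 2.2.9 to the converted GRCh37 genome and transcriptome, per the submitters' processing notes and the methods of the study. The deposited coverage is a count of the reads showing C or T, not scaled. The authors gave the m5C level as the fraction of these that showed C. Their deposited p-value comes from a binomial test that takes the conversion rate of each gene as its null, and it only describes the lists here. Sites had passed the authors' filters on coverage, level, reads rich in C and conversion-resistant genes. Whether the deposited counts precede the removal of reads rich in C was not given in the sources used here. A level taken after that step could be lower at sites in reads with several m5C.

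Multiplying level by coverage recovered the reads with C, whole at all 1222 listings (tolerance 1e-06). Fisher's exact test (two-sided) was applied to each site, with Benjamini-Hochberg adjustment over all shared sites. Sequences and locations were read from GRCh37 and GENCODE 44, with the canonical transcript preferred, and folds from RNAfold 2.7.2. The test was tested on simulated data. The members, gene lists and alternatives were chosen with earlier results of these data known. Named sites were the called ones, up to 12 a direction by size of the difference, up to 4 uncalled with the largest differences and 4 with the most reads, the highest and lowest mean level, and up to 6 members a gene list. Python 3.11.15, numpy 2.4.6, scipy 1.17.1, pandas 2.3.3 and numba 0.67.0 were used.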

Additional observations from a re-analysis of the deposited data

How the results depend on the processing

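No paired analysis was possible because each fraction had 1 library, and no library could be left out for the same reason. The 18 calls became 10 with a mean level of at least 30%, 7 of the 19 sites with 21 nt that occur 1 time after conversion (adjusted over those alone), 8 with Holm's adjustment and 9 of 105 sites with light in place of heavy polysomes. Dividing the score statistic by its root mean square between the subunit libraries (5.62, which MT-RNR1 largely sets) left 1 call, MT-RNR1. A scale from the median, chosen after seeing the data, gave 20. Over the other settings the number was between 12 and 22. The median difference of 2.28 percentage points (interval 0.839 to 5.78) became 6.46 with a mean level of at least 20% (-0.179 to 9.17), 7.71 for sites with 21 nt that occur 1 time, and 5.87 as a weighted mean without MT-RNR1, a setting added after seeing the data. It was 3.44 with a mean level of at least 30% (-3.98 to 13.9), so at both level limits the interval reached below 0. The median itself was positive under every alternative run. No site was called under every alternative run. The scaled score statistic left MT-RNR1 alone, and MT-RNR1 was not called with the large in place of the small subunit (Fisher's exact test, adjusted p = 0.269). Most alternatives reuse the same difference, so a direction could change only with other libraries or with copies summed. It did at 2 of the 18 called sites, both with light in place of heavy polysomes, GIPC1 (-1.05 percentage points) and RPSA (-0.662). The large subunit against light polysome count of 12 was 11 at a coverage of 50 or more and 9 with monosomes in place of the large subunit, and the Type II minus Type I median was between -2.98 and -0.664. Depth limits sites with few reads, and sites under 10% in either library cannot be seen. The cause of these changes was not tested.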

Other observations

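The sites with the most reads showing C among those listed on 1 side alone were looked up after the data were seen and are given as values. The RPS29 site (chromosome 14, position 50052737, minus strand, Type I, CDS), in a protein of the small ribosomal subunit, had a level of 13.5% over 62051 reads in the small subunit library (13.2% to 13.8%). It was also listed at 13.5% in free RNA, 14.4% with the large subunit and 16.1% in monosomes, and in neither polysome library. The CABIN1 site (chromosome 22, position 24560499, plus strand, Type II, CDS), in an inhibitor of calcineurin, had a level of 50.9% over 167 reads in the heavy polysome library (43.4% to 58.4%). Its other levels were 17.2% with the large subunit, 19.4% in monosomes and 29.3% in light polysomes, and the small subunit library did not list it. Neither difference could be tested, because the lists give no reads for the missing side.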
